A study of Mus musculus with 3 samples.

Results

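The genes described here encode the receptor that senses bacterial lipopolysaccharide (LPS), the proteins that hand LPS to it, its closest relative on the macrophage surface and the adaptors that carry its signal. They were chosen as a list of gene symbols, by role, and the rule used no measured value, although earlier results of these data were known when the list was drawn up. Tlr4, Ly96, Cd14, Lbp, Cd180, Ly86, Myd88, Tirap, Ticam1 and Ticam2 made up the set, 10 of the 55536 annotated genes quantified, and each symbol matched 1 gene. Their RNA was measured by ribosome-depleted total RNA sequencing in cytosol prepared from bone-marrow-derived macrophages, primary cells grown from the marrow of C57BL/6J mice. Lipid A, the lipopolysaccharide moiety that TLR4 recognises, was given at 100 ng/ml for 12 h and removed for 12 h, and the same dose was then given for a further 20 min before harvest. The series holds this 1 group in 3 libraries, and no untreated, singly treated or nuclear library was analysed here. All values are thus levels in re-stimulated cells, and no change with Lipid A was measured. The 3 libraries carry the numbers 1, 2 and 3 as biological replicates but share a single donor identifier in the labels, which record neither sex nor age, so that each SD below (n = 3) is a spread between libraries that may be partly technical. An exact sign-flip test over 3 libraries cannot go below p = 0.25, and ratios between genes are therefore given with their spread and without a test.

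TLR4 signals only together with MD-2, the small secreted protein encoded by Ly96 that holds the lipid part of LPS. LPS-binding protein (LBP) extracts LPS from bacterial membranes and passes it to CD14, a membrane-anchored protein without a signalling domain, which delivers it to TLR4 and MD-2 and also drives uptake of the receptor into endosomes. From the plasma membrane TLR4 recruits TIRAP (MAL) and MyD88, which lead to NF-kB, and from endosomes it recruits TRAM (Ticam2) and TRIF (Ticam1), which lead to IRF3 and type I interferon. RP105 (Cd180) and its partner MD-1 (Ly86) resemble TLR4 and MD-2, but RP105 lacks the TIR domain through which TLR4 signals, and in macrophages and dendritic cells the pair is known as a brake on TLR4.

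Depth on annotated genes was 32055937 expected counts for replicate 1, 43616634 for replicate 2 and 47864978 for replicate 3. The unit of level is TPM, a length-scaled share of all transcripts of a library. The 2 copies of 7SL RNA took 55.5% to 62.9% of all TPM, and protein-coding genes held 32.7% in replicate 1, 27.4% in replicate 2 and 27.8% in replicate 3, which lowers every TPM below and sets replicate 1 higher. The libraries also differed in inflammatory and nuclear RNA. The cytokine gene Tnf stood at 161, 49.65 and 40.1 TPM in replicates 1, 2 and 3, and the nuclear RNA Malat1 at 612, 156 and 637 TPM. Xist, another nuclear RNA, stood at 13.4, 0.66 and 3.42 TPM in the same order of replicates. The reason for these differences was not tested. All 7 macrophage markers exceeded 1 TPM in every library, with sums of 4535 to 5282 TPM, while the 5 dendritic cell, 4 T cell and 4 hepatocyte markers did not. Of 6 B cell markers, a cell type that also expresses Cd180 and Ly86, only Cd79b did (list sum 1.5 to 3.07 TPM). Of 6 neutrophil markers, a cell type that also expresses Cd14, S100a8 and S100a9 did (list sum 7.68 to 15.4 TPM), and Ly6g had 0 counts. In bulk RNA, fewer expressing cells and less RNA per cell cannot be told apart.

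Of the 10 genes, 9 reached 1 TPM in every library, beside 9518 of the 12372 genes with enough counts to be tested, and the levels spanned a wide range, with Lbp lowest and Cd180 highest. The median over the set was 25.2 ± 4.41 TPM, beside 5.14 ± 0.31 TPM over those 12372 genes. In falling order of mean level the genes were Cd180, Ly86, Cd14, Myd88, Tlr4, Ly96, Ticam2, Ticam1, Tirap and Lbp. Each neighbour in this order was higher than the next in 3 of 3 libraries, by a mean log2 ratio above its SD, except for Tlr4 and Ly96, which were not apart.

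**Figure D1:**
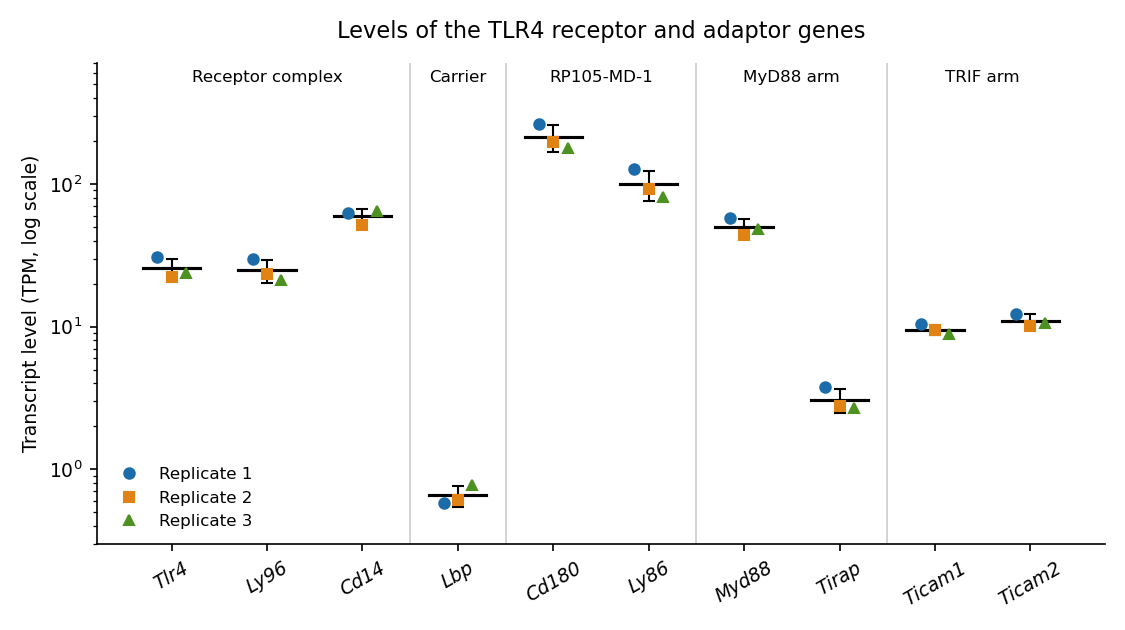
TPM (log scale) of the 10 genes, grouped by role, with 1 point per library and the mean ± SD (n = 3) as a bar with whiskers. Cd180 and Ly86 lie above every other gene, Tlr4 and Ly96 lie at the same height near 25 TPM, and Lbp lies alone below 1 TPM.

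Tlr4, the signalling receptor, was a well-expressed gene of these macrophages. It stood at 30.6 TPM in replicate 1, 22.4 TPM in replicate 2 and 23.6 TPM in replicate 3, from 5738, 6824 and 7482 expected counts. Its mean of 25.5 ± 4.41 TPM ranked 1810 among 22028 protein-coding genes. The gene (ENSMUSG00000039005.13) occupies chr4:66827584-66930284 on the plus strand of mm10. Nearly all of its RNA, 98.1% ± 0.72, was assigned to the coding transcript Tlr4-201. A second quantification of each library, described with Cd180 below, gave Tlr4-201 less, 92.4%, 88.0% and 89.9% in replicates 1, 2 and 3. There the noncoding Tlr4-204 took 5.10%, 10.4% and 8.59%, against 0% in the first. Among 12491 coding genes with RNA in every library, 15 lay within 0.1 log2 units of Tlr4 in all 3. The nearest was Nmt1, a protein myristoyltransferase gene, at 31.5, 22.6 and 23.6 TPM, followed by Tbk1, which encodes the kinase activated downstream of TRIF, at 31.6, 21.8 and 23.05 TPM. Tent5a, a gene of a poly(A) polymerase family, came next at 29.3, 21.6 and 24.0 TPM.

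Ly96, which encodes MD-2, was not apart from its receptor in level. Its values were 29.95, 23.4 and 21.2 TPM in replicates 1, 2 and 3, a mean of 24.8 ± 4.57 TPM. The log2 ratio of Ly96 to Tlr4 was -0.03, 0.06 and -0.16 in the 3 libraries, a mean of -0.04 ± 0.11, with its sign above 0 in 1 of 3. This near equality rests on how length was handled. The Ly96 transcript is short, so that its effective length (the positions from which a fragment could have come) was 397 to 406 bases against a full length of 627 to 630 bases. With counts divided by full length the ratio was -0.61 ± 0.11, that is, Ly96 below Tlr4. Ly96 had the fewest counts of the 9 genes above 1 TPM in each library, at 595, 755 and 714. It lies at chr1:16688051-16709611 on the plus strand (ENSMUSG00000025779.10).

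Cd14, the co-receptor, was more abundant than Tlr4 in every library. It stood at 62.3, 51.7 and 64.3 TPM in replicates 1, 2 and 3, against 30.6, 22.4 and 23.6 TPM for Tlr4. The log2 ratio of Cd14 to Tlr4 was 1.03, 1.21 and 1.44, a mean of 1.23 ± 0.21, or 2.34-fold. The ratio was lowest in replicate 1 and highest in replicate 3, and its spread was the widest of the 9 ratios between members and arms drawn in the plot of ratios. A transcript that keeps the single intron of the gene, Cd14-202, took 9.13%, 12.8% and 9.81% of Cd14 RNA (10.6% ± 1.95), resting on 181, 342 and 338 counts, in a fraction labelled cytosolic. The intron is 91 bases long. The gene (ENSMUSG00000051439.7) lies at chr18:36725067-36726798 on the minus strand. Replicate 2 had the highest share of the retained-intron form and the lowest Malat1, whose part in the result was not tested.

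Lbp, which in the body is made mainly by the liver, was the only gene of the set below 1 TPM. It stood at 0.58, 0.61 and 0.78 TPM in replicates 1, 2 and 3, a mean of 0.657 ± 0.108 TPM. These values rest on 53, 83 and 107 counts, with 95% Poisson intervals of 0.434 to 0.759 TPM, 0.486 to 0.756 TPM and 0.639 to 0.943 TPM that cover counting error only. All 3 intervals overlap, and all lie below 1 TPM. This position depends on the scale. When TPM was rescaled over protein-coding genes alone, Lbp stood at 1.77, 2.23 and 2.81 in replicates 1, 2 and 3. The hepatocyte markers Alb, Ttr and Serpina1a had 0 counts in all libraries, and the sum of the 4 markers was at most 0.02 TPM. Lbp-201, the full coding transcript, took 71.2% ± 4.61 of Lbp RNA. A shorter annotated form with incomplete coding ends, Lbp-203, took 26.2% ± 6.08, but this share rests on 1.13, 3.11 and 4.16 counts and is not resolved at this depth. The gene (ENSMUSG00000016024.9) lies at chr2:158306493-158332852 on the plus strand.

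Cd180 was the most abundant of the 10 genes and ranked 162 among all protein-coding genes. It reached 263 TPM in replicate 1, 196 TPM in replicate 2 and 179 TPM in replicate 3, a mean of 213 ± 44.5 TPM, from 29589, 35578 and 33633 counts. Against Tlr4 it was 8.61-fold, 8.74-fold and 7.59-fold higher, a mean log2 ratio of 3.05 ± 0.11. The spread of this ratio between libraries was small beside its size.

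Most Cd180 RNA was assigned to the full coding form, and the largest minor share went to a form with a different end. Cd180-201, with 3 exons and 661 codons, held 90.4%, 91.6% and 90.6% of it. Cd180-203 held 5.45%, 5.45% and 6.28%, or 14.4, 10.7 and 11.3 TPM, from 437, 529 and 579 counts. That is about the level of the whole Ticam2 gene, at 12.3, 10.1 and 10.6 TPM. It shares exon 2 with the full form but joins it to a last exon at chr13:102739166-102739629, 32211 bases beyond the end of Cd180-201, and codes for 105 codons. Each library was also quantified by another route, from its reads rather than from alignments, and this second quantification gave the form 6.14%, 5.34% and 6.20%. Of its 842 exon bases, 182 are also exon bases of Mast4 on the opposite strand, a kinase gene at 2.62, 0.88 and 1.26 TPM. The strand setting of the counting is not given in the sources, so reads in that overlap cannot be told apart. Cd180-205, at 1.63%, 1.65% and 1.61% of Cd180 RNA, joins exon 1 to a last exon with the same first base. Reads within that distal exon may thus belong to either minor form. The junctions of Cd180-201 and Cd180-203 are shown because they are what separates these forms. Each line gives, from the GENCODE M21 transcripts (plus strand, 5′ to 3′), the last 30 bases of exon 2 in lower case, chr13:102702838-102702867, and the first 30 bases of exon 3 in capitals, from chr13:102704705-102704734 in Cd180-201 and from chr13:102739166-102739195 in Cd180-203.
Cd180-201: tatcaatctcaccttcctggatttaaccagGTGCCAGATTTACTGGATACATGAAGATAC
Cd180-203: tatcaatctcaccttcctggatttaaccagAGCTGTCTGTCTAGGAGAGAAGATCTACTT

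Ly86, which encodes MD-1, was the next most abundant of the set. It stood at 126.5, 91.7 and 81.2 TPM in replicates 1, 2 and 3, a mean of 99.8 ± 23.7 TPM, from 5751, 6699 and 6182 counts. MD-1 transcripts exceeded those of MD-2 by 4.22-fold, 3.92-fold and 3.84-fold, a mean log2 ratio of 2.00 ± 0.07. Within the RP105 pair the secreted partner was the lower one. Ly86 was 0.480, 0.468 and 0.453 times Cd180, a mean log2 ratio of -1.10 ± 0.04. Cd180 thus exceeded its partner 2.14-fold by effective length, and the log2 ratio of Ly86 to Cd180 was -1.28 ± 0.04 by full length. Tlr4 and its partner Ly96 were not apart by effective length, but Ly96 lay below Tlr4 by full length, as given above. The Ly86 coding transcript Ly86-201 held 99.7% ± 0.20 of the RNA. Cd180 (ENSMUSG00000021624.9) and Ly86 (ENSMUSG00000021423.6) both lie on the plus strand of chromosome 13, at chr13:102693558-102739629 and chr13:37345208-37419036.

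Myd88, the adaptor shared by most Toll-like receptors and the IL-1 receptor family, was the most abundant adaptor. It stood at 57.8, 43.9 and 48.02 TPM in replicates 1, 2 and 3, a mean of 49.9 ± 7.13 TPM, above Tlr4 in all 3 libraries. Its log2 ratio to Tlr4 was 0.92, 0.97 and 1.02. The ratio varied little, with an SD of 0.05. Myd88-201 held 99.6% ± 0.19 of the RNA. The gene (ENSMUSG00000032508.8, chr9:119335934-119341411, minus strand) shares 290 of its 2576 exon bases, 11.3%, with Acaa1a on the opposite strand. Acaa1a, a peroxisomal thiolase gene, stood at 29.3, 21.3 and 21.8 TPM, so part of the reads in the overlap may belong to either gene. Slc22a14, whose span covers Myd88 on the same strand, shares no exon bases with it and was listed at 0 TPM.

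Tirap, which bridges MyD88 to the receptor at the membrane, was the least abundant adaptor. It stood at 3.76, 2.78 and 2.67 TPM in replicates 1, 2 and 3, a mean of 3.07 ± 0.60 TPM. Myd88 exceeded it 15.4-fold, 15.8-fold and 18.0-fold, a mean log2 ratio of 4.03 ± 0.12, the widest gap between partners of 1 arm. Apart from Lbp, Tirap was the gene with the most divided transcripts. Tirap-201 took 76.7%, 75.1% and 73.0% of its RNA and Tirap-203 took 14.8%, 20.9% and 20.4%. The second quantification gave Tirap-203 more, 23.8%, 33.0% and 32.5%, and Tirap-201 less, 70.9%, 61.5% and 55.7%. Tirap-201, Tirap-203, Tirap-205 and Tirap-207 have the same 747 coding bases, so these 4 forms differ only outside the coding sequence. Tirap-203 starts 363 bases downstream of Tirap-201 and has a last exon of 1146 bases, against 3380 bases in Tirap-201. An antisense gene, Gm39318, overlaps 446 of the 4929 Tirap exon bases and was at most 0.03 TPM, and Srpr, a neighbour on the opposite strand at 25.1 ± 3.09 TPM, overlaps 39. The gene (ENSMUSG00000032041.15) lies at chr9:35184551-35200291 on the minus strand.

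**Figure D2:**
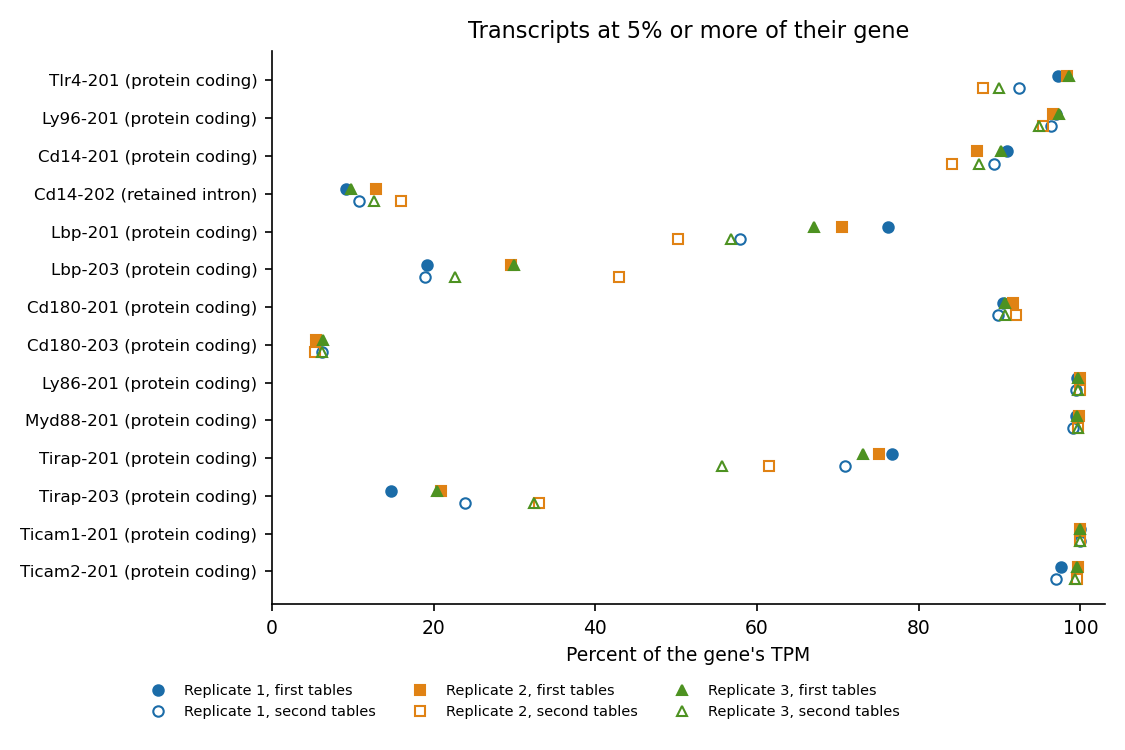
Percent of each gene's TPM assigned to its transcripts, for transcripts at 5% or more in the mean of the first tables. Filled points give the first quantification and open points the second, with 1 point per library. In the first quantification a single transcript holds above 90% in 7 genes, while Cd14, Lbp and Tirap have another at 10% or more. Among the transcripts drawn, the quantifications differ most for those of Lbp and Tirap. Tlr4-204, at 0% in the first quantification, is not drawn.

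The promoters of Cd180, Myd88 and Ticam1 are shown because they belong to the most abundant member and to the adaptors that head each arm. From the RefSeq promoter table of GRCm38.p6, windows of 5 of the 10 genes were used, 7 windows in all. Each holds 300 bases, from 250 before to 50 after the annotated start. Cd14 and Ticam2 were left out of this search, and the table held no window for Tlr4, Ly96 and Lbp. The Cd180 window, chr13:102693308-102693607 on the plus strand, starts transcription at the first base of Cd180-201. The Myd88 window, chr9:119339969-119340268 on the minus strand, places the start 23 bases downstream of the first base of Myd88-201. The Ticam1 window, chr17:56276718-56277017 on the minus strand, places it 19 bases downstream of Ticam1-201. Sequences are written 5′ to 3′ along the gene's strand, and capitals mark every match to 7 motifs searched on both strands.
Cd180 promoter: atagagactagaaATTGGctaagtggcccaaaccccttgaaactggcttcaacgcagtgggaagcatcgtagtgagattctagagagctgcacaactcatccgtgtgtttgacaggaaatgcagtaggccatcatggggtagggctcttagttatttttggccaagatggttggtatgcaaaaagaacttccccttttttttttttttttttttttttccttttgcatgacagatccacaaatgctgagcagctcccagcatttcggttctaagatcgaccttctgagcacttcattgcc
Myd88 promoter: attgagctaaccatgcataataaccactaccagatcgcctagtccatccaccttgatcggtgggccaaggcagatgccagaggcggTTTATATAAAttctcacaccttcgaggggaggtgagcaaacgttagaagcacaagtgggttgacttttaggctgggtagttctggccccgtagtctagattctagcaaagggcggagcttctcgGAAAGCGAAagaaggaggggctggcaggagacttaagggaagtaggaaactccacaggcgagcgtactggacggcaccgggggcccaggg
Ticam1 promoter: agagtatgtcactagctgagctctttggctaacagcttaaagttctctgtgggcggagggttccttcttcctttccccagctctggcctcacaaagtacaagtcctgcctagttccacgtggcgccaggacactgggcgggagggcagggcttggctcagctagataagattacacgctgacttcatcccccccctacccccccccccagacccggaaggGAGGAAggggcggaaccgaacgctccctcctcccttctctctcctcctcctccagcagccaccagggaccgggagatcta

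The Cd180 window was the poorest in G and C of the 3, at 43.7% with 5 CpG, beside 54.0% and 13 CpG for Myd88 and 60.0% and 10 CpG for Ticam1. Over 32851 RefSeq windows the medians were 52.7% and 7 CpG. The Myd88 window holds an IRF-type element (GAAANNGAA) at -40 to -32, counted from the start base as 0, and 8.56% of all windows hold one on either strand. It also holds overlapping TATAAA letters, 1 on each strand, between -164 and -155, a motif found in 13.6% of windows. The Ticam1 window holds a PU.1-type core (GAGGAA) at -30 to -25, found in 28.3% of windows. In the Cd180 window the only match was a CCAAT box on the minus strand at -237 to -233, found in 37.4% of windows. No letters of the NF-kB consensus (8.46% of windows), the AP-1 element TGANTCA (7.81%) or the C/EBP-type element TTGCNNAA (10.8%) occur in these 3 windows. Of the windows searched but not shown, that of Ly86 also holds an IRF-type element, at 0 to 8, and no other match. Those of Tirap hold none of the 7 motifs, and the other Cd180 window holds the same CCAAT box, at -226 to -222. A match is a description of letters and not of binding.

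Ticam1, which encodes TRIF, was a moderately expressed gene. It stood at 10.35 TPM in replicate 1, 9.45 TPM in replicate 2 and 8.81 TPM in replicate 3, a mean of 9.54 ± 0.77 TPM, from 1430, 2100 and 2029 counts. The annotation gives it a single transcript. The gene (ENSMUSG00000047123.8) lies at chr17:56269319-56276786 on the minus strand.

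Ticam2, which encodes TRAM, the bridge between TRIF and the receptor, was slightly above its partner. It stood at 12.3, 10.1 and 10.6 TPM in replicates 1, 2 and 3, a mean of 11.0 ± 1.16 TPM. The log2 ratio of Ticam1 to Ticam2 was -0.25, -0.09 and -0.27, a mean of -0.21 ± 0.10, below 0 in 3 of 3 libraries. The TRIF arm was thus far more even than the MyD88 arm. Ticam2 shares 838 of its 5792 exon bases, 14.5%, with Tmed7 on the same strand, a cargo receptor gene at 34.5, 27.3 and 24.4 TPM, so the division of reads between them, and with it the small difference from Ticam1, is uncertain. The gene (ENSMUSG00000056130.10) lies at chr18:46557291-46574533 on the minus strand.

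As means of log2 TPM over their genes, the MyD88 arm (Myd88 and Tirap) exceeded the TRIF arm (Ticam1 and Ticam2) only slightly. The log2 ratio was 0.39, 0.18 and 0.23 in replicates 1, 2 and 3, a mean of 0.26 ± 0.11, or 1.2-fold. This mean joins the highest and the lowest of the 4 adaptors, and the small excess depends on averaging log2 values. Myd88, at 49.9 TPM, lay above both Ticam1 (9.54 TPM) and Ticam2 (11.0 TPM), and Tirap, at 3.07 TPM, below both. The receptor complex (Tlr4, Ly96 and Cd14) exceeded the 4 adaptors by log2 ratios of 1.58, 1.53 and 1.60, a mean of 1.57 ± 0.04, or 2.97-fold. Its spread was the smallest of the 9 ratios in the plot of ratios. It also averages over the most genes, and averaging by itself tends to narrow a spread.

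**Figure D3:**
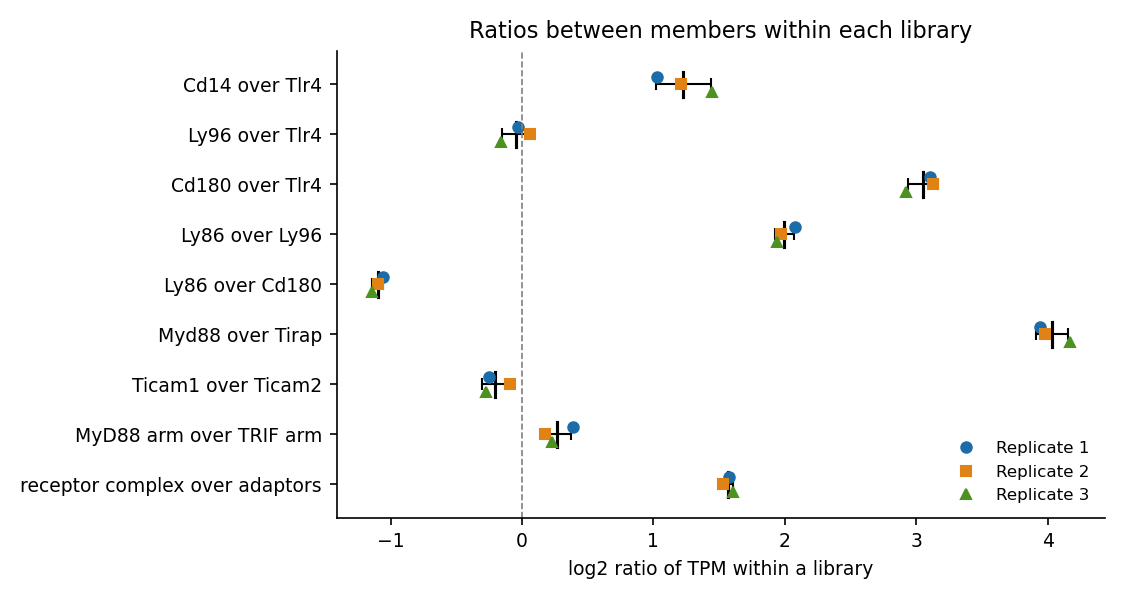
log2 ratio of TPM within a library for 9 pairs or groups of genes, the first named over the second, with 1 point per library and the mean ± SD (n = 3). Only Ly96 over Tlr4 has points on both sides of 0. Myd88 over Tirap (4.03) and Cd180 over Tlr4 (3.05) lie farthest from it.

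The levels of the set differed between the 3 libraries by more than counting noise, as those of most genes did. With edgeR's likelihood-ratio test at dispersion 0, which asks only whether libraries differ beyond counting error and not whether a condition does, 9 of 10 members were called at a Benjamini-Hochberg adjusted p under 0.05, beside 71.1% of 12372 genes. The exception was Lbp (adjusted p = 0.295). Adjusted p-values of the called genes ranged up to 0.0268 for Ticam2. Without replicate 1, Tlr4, Myd88 and Ticam2 were no longer called (edgeR adjusted p = 0.852, 0.0551 and 0.981), and without replicate 3 the same held for Ticam1 (0.705). The share of all genes called was lower in these settings too, at 52.3% without replicate 1 and 51.6% without replicate 3. The differences themselves were small. After scaling by TMM (factors that align the bulk of genes between libraries), none of the 10 differed by 1.5-fold between its highest and lowest library, beside 27.1% of 12370 genes. The fold between highest and lowest ran from 1.08 for Ticam2 to 1.46 for Ly86, with a median of 1.27 over the members and 1.29 over all genes. In plain TPM, without this scaling, the fold of Ly86 was 1.56.

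On the TMM-scaled TPM, Ly86 stood at 119, 97.1 and 81.5 in replicates 1, 2 and 3, and Cd180 at 248, 207 and 180. Both were highest in replicate 1 and lowest in replicate 3. Ly96 (28.2, 24.8 and 21.3) and Tirap (3.54, 2.94 and 2.68) had the same order, whereas Cd14 (58.5, 54.8 and 64.6) and Lbp (0.545, 0.646 and 0.784) were highest in replicate 3. In all, 7 of 10 members were highest in replicate 1 on this scale, and 6 of 10 when TPM was rescaled over protein-coding genes. Replicate 1 was also the library with the highest Tnf, as given above, and the chemokine gene Cxcl10 stood there at 861 TPM, against 179 TPM in replicate 2 and 218 TPM in replicate 3. Their part in these differences was not tested. Without replicate 1, Cd180 averaged 188 TPM and Ly86 86.4 TPM. Leaving out any 1 library kept the mean TPM of every member between 0.866 and 1.09 times that over all libraries.

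**Figure D4:**
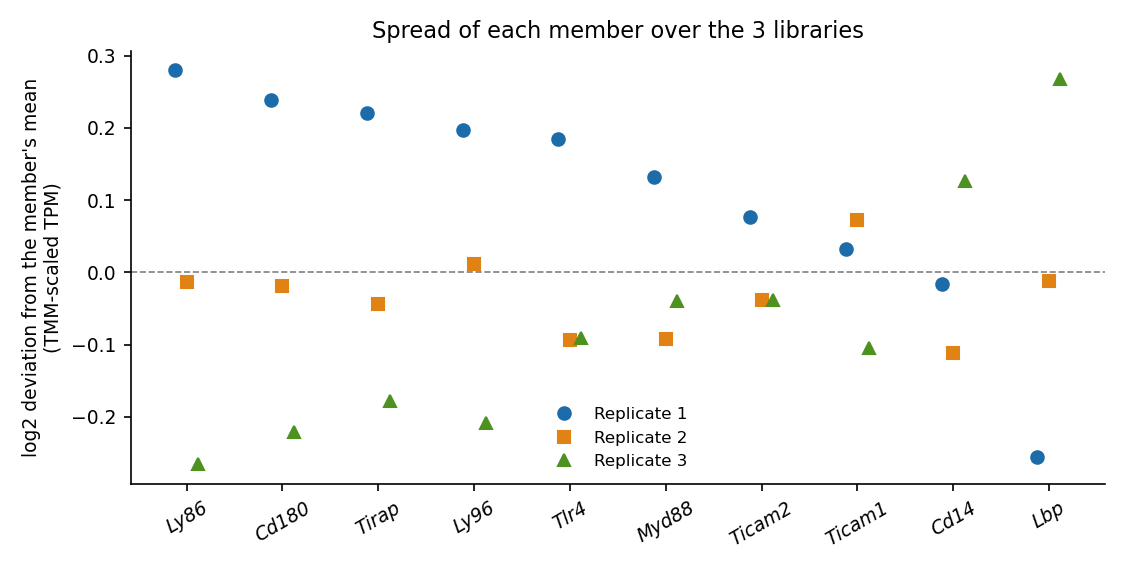
log2 deviation of TMM-scaled TPM from each gene's mean over the 3 libraries, 1 point per library, with genes ordered by their deviation in replicate 1. Ly86, Cd180, Tirap and Ly96 lie highest in replicate 1 and lowest in replicate 3, and Lbp runs the other way.

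The pairs whose ratio varied least over libraries were Ly96 with Cd180 (SD of the log2 ratio 0.037), Cd180 with Tirap (0.037) and Cd180 with Ly86 (0.043), out of 45 pairs with a median SD of 0.158. The widest ratio was that of Lbp and Ly86 (0.534), and without Lbp that of Cd14 and Ly86 (0.354). With 3 libraries this order is a description only.

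Both quantifications gave the same order of the 10 genes. In the second, TPM was 0.446 to 0.590 of the first, and after rescaling both over protein-coding genes the mean of a member lay between 0.897 and 1.19 times that in the first. On that scale Cd180 stood at 753 ± 68.3 in the second quantification and 722 ± 79.6 in the first, and Lbp at 2.70 ± 0.56 and 2.27 ± 0.52.

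**Figure D5:**
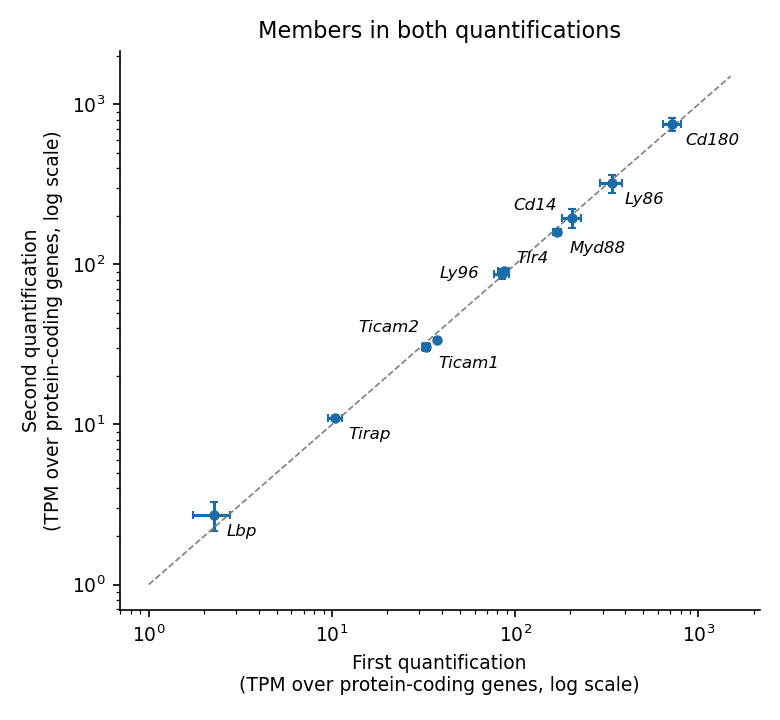
Mean ± SD (n = 3) of each gene in the second (y axis) and first (x axis) quantification, both as TPM rescaled over protein-coding genes, on log scales. The 10 genes lie along the dashed line of equality, and Lbp lies farthest from it.

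Genes that work with the receptor were mostly present too, at a threshold that 9518 of 12372 tested genes reached. Of 8 genes that bind, take up or break down LPS outside the complex, 7 reached 1 TPM in every library. Aoah, which encodes the enzyme that deacylates lipid A, was highest at 111 ± 19.4 TPM, and Bpi, a neutrophil LPS-binding protein gene, was lowest at 0.0033 ± 0.0058 TPM. All 8 genes for folding and traffic of TLR4 reached 1 TPM, from Hsp90b1, the chaperone gp96 on which Toll-like receptors depend, at 113 ± 15.1 TPM to Cnpy4 at 4.26 ± 0.50 TPM. All 6 genes of CD14-dependent uptake did so, from Fcer1g, the Fc receptor gamma chain, at 1361 ± 208 TPM to Plcg2, a phospholipase C gene, at 22.7 ± 2.21 TPM.

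Beyond the adaptors, all 6 genes of the next step on the MyD88 side reached 1 TPM. Pik3ap1, the PI3-kinase adaptor BCAP, was highest at 266 ± 41.0 TPM and the ubiquitin ligase gene Traf6 lowest at 4.65 ± 0.36 TPM. The median of that list was 14.6 ± 3.40 TPM. On the TRIF side all 6 did so as well, from the kinase gene Ikbke at 56.6 ± 15.9 TPM to Traf3 at 3.89 ± 0.58 TPM, with a median of 19.9 ± 4.04 TPM. Of 6 inhibitors of the receptor or of TIR-domain adaptors, 3 reached 1 TPM. Cd300lf, an inhibitory receptor gene, was highest at 29.9 ± 7.45 TPM, and Sarm1, the TIR-domain protein known to inhibit TRIF in human cells, was lowest at 0.0167 ± 0.0115 TPM. Cd180 exceeded each of these 6 inhibitors, but at rank 162 among 22028 protein-coding genes it exceeded nearly all other genes too.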

How the data were processed

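Each library has a gene table and 2 transcript tables, which the authors built on mm10 and GENCODE M21 according to their deposited notes. For programs, versions and strandedness, nothing is given in the sources used here. Gene tables hold expected counts (estimated reads per gene) and TPM, scaled by the authors over all entries, as deposited. The first transcript tables, deposited by the authors, give the percent of a gene per transcript, and bounds of an interval on TPM that were not used. The second tables hold estimated counts and TPM per transcript, per the file headers, and were summed per gene here.

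Ratios are log2 of TPM within a library, without a pseudocount. Expected counts were rounded and tested with edgeR 4.0.16 (R 4.3.3): filterByExpr, TMM, likelihood ratio at dispersion 0, Benjamini-Hochberg adjustment over all genes tested. Of these steps, the edgeR call was tested on simulated Poisson counts. Symbols, spans and transcripts came from GENCODE M21, and promoters from RefSeq. Neighbours in level count as apart when their ratio has 1 sign in 3 of 3 libraries and its mean exceeds its SD. Genes named were the members, the highest and lowest of each context list, the 3 nearest to Tlr4, overlapping genes and transcripts at 10% or more. Tlr4-204, Cd180-203, Cd180-205, Cd79b, S100a8, S100a9, Ly6g, Tnf, Cxcl10, Malat1, Xist and the hepatocyte markers at 0 were named after their values were seen. The members, ratios and lists were chosen with earlier results of these data known. Figures were drawn with matplotlib 3.10.9.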

Additional observations from a re-analysis of the deposited data

How the results depend on the processing

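No paired analysis was possible because the series holds 1 group. Over 63 alternatives to the 9 ratios, 51 moved the log2 ratio by less than its SD and 12 by more. None turned a called direction. These 63 include leaving out 1 library in turn. That setting cannot move a mean over 3 libraries by its SD or turn a called direction. All 12 came from the other settings, so the 51 overstate how stable the ratios were. In the second quantification the log2 ratio was 1.88 for Ly86 over Ly96, -1.23 for Ly86 over Cd180, 3.86 for Myd88 over Tirap, 0.39 for the MyD88 arm over the TRIF arm and 1.65 for the receptor complex over the adaptors. With a pseudocount of 1 it was 3.65 for Myd88 over Tirap and 1.44 for the receptor complex over the adaptors, and with protein-coding transcripts alone the receptor complex over the adaptors gave 1.51. With full in place of effective length, an alternative chosen after seeing the data, it was -0.61 for Ly96 over Tlr4, 2.32 for Ly86 over Ly96, -1.28 for Ly86 over Cd180 and 1.37 for the receptor complex over the adaptors. Leaving out 1 library in turn kept every ratio within its SD, which with 3 libraries could not have come out otherwise. The ratio of Ly96 to Tlr4, which is not apart from 0, then ran from -0.09 to 0.02. Beyond counting noise, edgeR called 9 members with DESeq2-type size factors and 8 without the count filter (Ticam2 lost, adjusted p = 0.454) and in the second quantification (Ticam2, 0.066). Without replicate 1 it called 6 (Tlr4, Myd88 and Ticam2 lost), without replicate 2 it called 9, and without replicate 3 it called 8. Over all genes tested, 70.7% were called with DESeq2-type size factors, 49.4% without the filter (10759 of 21794), 73.9% in the second quantification (9932), and 51.6% to 53.4% (6340 to 6822 genes) with a library left out. Depth limits the transcripts of Lbp, which rest on few counts.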
